A study of Mus musculus with 12 samples.

Results

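The Hox genes of mouse are transcription factors laid out in 4 clusters, A to D, and they were taken here as all genes whose symbol consists of Hox, a cluster letter and a paralogue number. Of the 19935 genes measured on the arrays, 37 were Hox genes, each read by 1 probe set: 10 in cluster A (chromosome 6), 9 in cluster B (chromosome 11), 9 in cluster C (chromosome 15) and 9 in cluster D (chromosome 2). Hoxb8 was read only by a probe set it shares with Hoxb7 and is not among them. By paralogue number, 7 measured genes were anterior (1 to 3), 14 central (4 to 8) and 16 posterior (9 to 13).

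The study compared 4 groups of male mice aged 8 to 10 weeks. TG DSS were Villin-Claudin-2 transgenic mice given 4% dextran sulfate sodium (DSS), a polymer that injures the colon lining, in the drinking water for 10 days. WT DSS were wild-type littermates given DSS in the same way. TG water and WT water were transgenic and wild-type mice on plain drinking water. The transgene carries claudin-2, a cation and water channel of tight junctions, and its name points to the villin gene, which is active in gut epithelium. Each group had 3 Affymetrix arrays, 12 in all, of total RNA whose labels give colon epithelial cells as the source. Whether arrays stand for separate animals is not stated, so the p-values cover spread that may be technical.

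Hox proteins bind DNA through a homeodomain and give cells their position along the head to tail axis. Genes at one end of a cluster (low numbers) are switched on early and towards the head, and genes at the other end (high numbers) later and towards the tail, which is called colinearity. In the gut, high-numbered genes such as Hoxa13, Hoxd13 and Hoxb13 are known for the hindgut and distal colon, and low and central numbers for more proximal gut and for its mesenchyme. The clusters also hold microRNA genes of the miR-10 and miR-196 families, and known targets of miR-196 include Hox messages such as that of Hoxb8.

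The microRNAs are shown because they lie in the clusters described here, and they are grouped by shared seed. Mature sequences are from RefSeq (GRCm38.p6), written 5′ to 3′, with the seed, bases 2 to 8, in capitals. The miR-196 products share the seed AGGUAGU and the miR-10 products share ACCCUGU.
mmu-miR-196a-5p: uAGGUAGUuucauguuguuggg
mmu-miR-196b-5p: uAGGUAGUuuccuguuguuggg
mmu-miR-10a-5p: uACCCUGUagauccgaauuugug
mmu-miR-10b-5p: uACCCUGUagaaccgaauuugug
miR-196a-5p is encoded by Mir196a-1 in cluster B (chr11:96265187-96265208, plus strand) and by Mir196a-2 in cluster C (chr15:102973365-102973386, plus strand). miR-196b-5p lies in cluster A (chr6:52230129-52230150, minus strand), miR-10a-5p in cluster B (chr11:96317186-96317208, plus strand) and miR-10b-5p in cluster D (chr2:74726074-74726096, plus strand).

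Hoxd13 and Hoxd4, which stood at opposite ends of cluster D on WT DSS replicate 3, are shown with the 250 bases before their annotated start, also from RefSeq (GRCm38.p6). Capitals mark ATAAA or its reverse complement TTTAT, the letters of a caudal (Cdx) type site, counted on both strands, with overlapping matches shown as 1 run of capitals.
Hoxd13, chr2:74667975-74668224, plus strand: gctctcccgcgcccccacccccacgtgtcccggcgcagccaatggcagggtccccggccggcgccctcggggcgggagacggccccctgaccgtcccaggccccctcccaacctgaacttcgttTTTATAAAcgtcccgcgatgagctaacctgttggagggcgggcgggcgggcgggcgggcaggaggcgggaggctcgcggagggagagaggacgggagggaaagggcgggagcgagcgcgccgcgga
Hoxd4, chr2:74721728-74721977, plus strand: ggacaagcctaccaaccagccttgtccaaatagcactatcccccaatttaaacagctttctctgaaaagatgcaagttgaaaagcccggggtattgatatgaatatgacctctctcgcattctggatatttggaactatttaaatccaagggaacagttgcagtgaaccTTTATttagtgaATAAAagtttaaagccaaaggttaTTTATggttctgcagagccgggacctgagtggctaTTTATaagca
The Hoxd13 stretch held 2 matches and 31 CpG dinucleotides at 74.4% G and C, and the Hoxd4 stretch held 4 matches and 3 CpG at 40.4%. The stretches of Hoxa13 and Hoxd8 were read as well and are not shown. Each held 0 matches, with 35 CpG for Hoxa13 and 6 for Hoxd8. Among the 21 Hox genes with a promoter in the table, 7 (33.3%) held the letters, against 37.3% of all 32851 promoters of the same length. TGATNNAT, the letters of a Hox and Pbx type site, was in 2 of the 21 (9.52%) against 7.68% of all, and TGACAG, those of a Meis type site, in 2 (9.52%) against 15.9%; each was read on both strands. The median CpG count was 12 over the Hox promoters and 6 over all promoters. A match is a description of these letters and not a binding site.

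Each deposited value is a log2 signal centred on the median of its own probe set over the 12 arrays, so 0 is that median, values compare arrays for 1 gene, and no level can be compared between genes. Nor can the values show whether a gene, or an epithelial marker, was present at all. The WT DSS arrays stood apart from one another: WT DSS replicates 1, 2 and 3 had 677, 3795 and 1035 of 28815 probe sets over 1 log2 unit away from the probe set's median, against 285, 53 and 90 in TG DSS replicates 1, 2 and 3 and 22 to 91 in the water arrays. Results are therefore given by array, and the tests are limma fits over all 12 arrays with Benjamini-Hochberg adjustment over the 19935 genes, called as passing at an adjusted p under 0.05. The 4 groups share 1 estimate of spread per gene, so SEs and p-values for TG and water also carry the WT DSS spread. Where the other groups vary less than WT DSS, the sharing also makes SEs and p-values for WT DSS smaller.

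No Hox gene passed in any comparison, and the values furthest from water lay in WT DSS replicates 2 and 3. On WT DSS replicate 3 the posterior genes Hoxb13, Hoxd13 and Hoxa13 stood further below their own median than any other gene of their cluster, and Hoxb5 and Hoxd4, central genes of clusters B and D, further above it. WT DSS replicate 2 showed parts of the same pattern at smaller size, and WT DSS replicate 1 stayed within 1 log2 unit of the median for all 37 genes. Over all 37 genes the values ran from -0.60 to 0.39 in TG DSS, from -5.36 to 2.66 in WT DSS, from -0.29 to 0.56 in TG water and from -0.39 to 0.44 in WT water. The cluster A median of TG DSS replicate 1 was -0.29, against -0.24 on WT DSS replicate 1 and -0.10 to 0.15 on the water arrays. On TG DSS replicate 1, 9 of 10 cluster A genes were below their median. That count was also 9 on WT DSS replicate 2 and was 10 on WT water replicate 1.

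**Figure D1:**
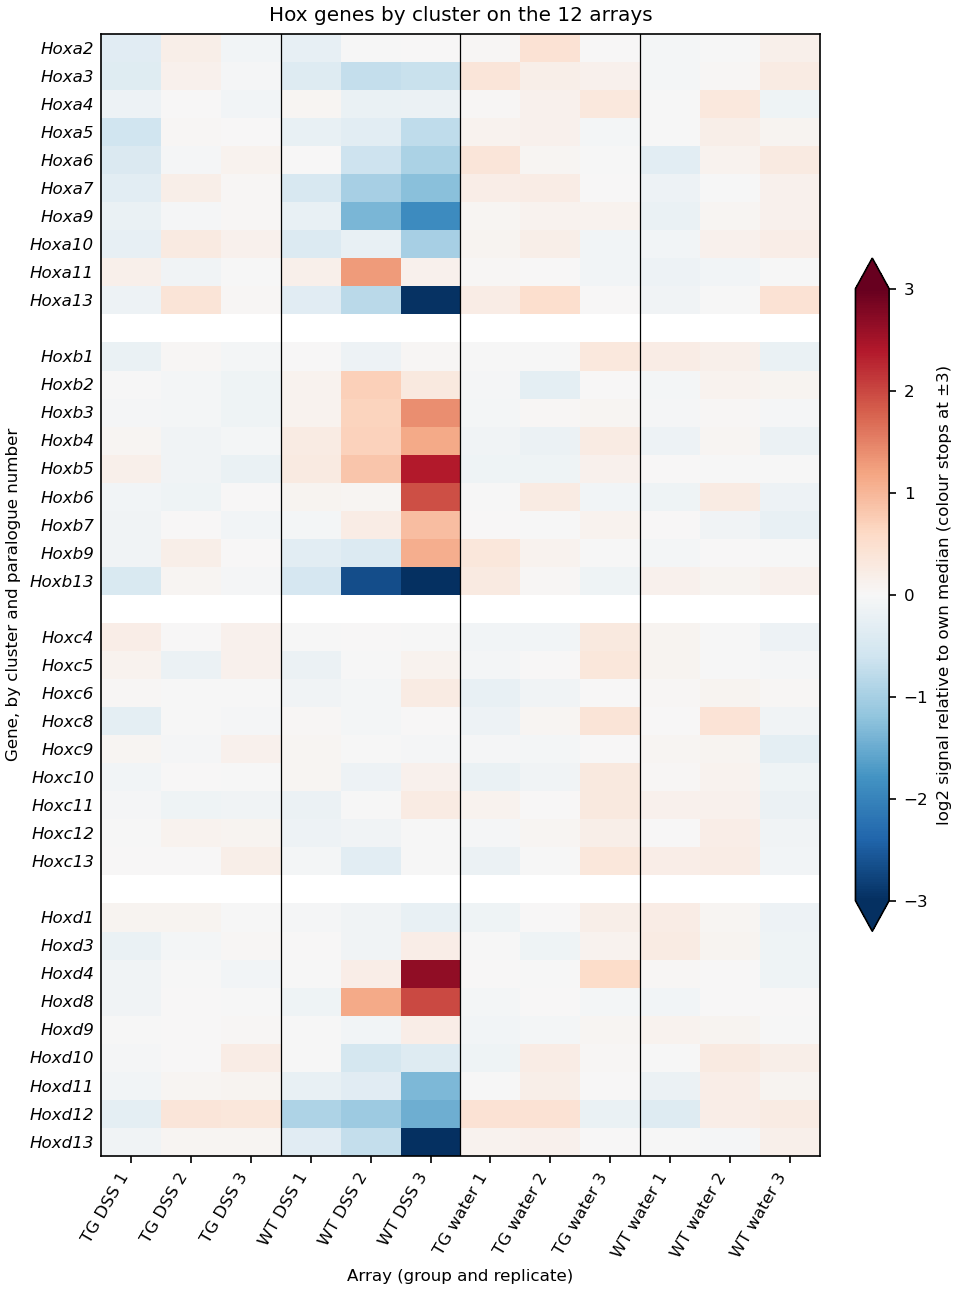
Log2 signal of the 37 Hox genes (rows, by cluster and paralogue number) on the 12 arrays (columns, by group and replicate), relative to each gene's median over all arrays, with the colour scale ending at 3 either side. WT DSS replicate 3 has 7 genes more than 1 unit above and 7 more than 1 unit below their median, and WT DSS replicate 2 has 2 above and 4 below.

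More than 1 log2 unit above their own median on WT DSS replicate 3 were 7 of the 37 Hox genes, against 1.88% of all genes: Hoxb3, Hoxb4, Hoxb5, Hoxb6, Hoxb9, Hoxd4 and Hoxd8. More than 1 unit below were another 7, against 1.9% of all genes: Hoxa7, Hoxa9, Hoxa13, Hoxb13, Hoxd11, Hoxd12 and Hoxd13. On WT DSS replicate 2, 2 genes were above (Hoxa11 and Hoxd8, against 9.45% of all genes) and 4 below (Hoxa7, Hoxa9, Hoxb13 and Hoxd12, against 6.78%). On the remaining 10 arrays no Hox gene was more than 1 unit from its median, against 0.351% of all values above and 0.132% below.

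Group 13 holds the most posterior genes, known for the hindgut, the cloaca and the urogenital tract. Hoxb13, known for the distal colon and prostate, read -0.50, -2.65 and -5.36 in WT DSS replicates 1, 2 and 3, against 0.12, 0.09 and 0.12 in WT water. It read -0.45, 0.06 and -0.05 in TG DSS, against 0.28, 0.05 and -0.12 in TG water. Every WT DSS array lay below every WT water array for Hoxb13, while the transgenic groups overlapped. The DSS change was -2.95 ± 0.90 in WT (SE, n = 3 per group, 7.71-fold lower, limma adjusted p = 0.177) and -0.22 ± 0.90 in TG (limma adjusted p = 1). Both SEs rest on the spread shared by the 4 groups, while the SD was 2.44 in WT DSS, 0.27 in TG DSS and 0.20 in TG water. Without WT DSS replicate 3 the change of Hoxb13 in WT was -1.69 (limma adjusted p = 0.0854).

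Hoxd13, known for digits, the urogenital tract and the anal sphincter, read -0.34, -0.70 and -4.26 in WT DSS, against -0.01, -0.04 and 0.15 in WT water. It read -0.11, 0.07 and 0.05 in TG DSS, against 0.11, 0.12 and 0.01 in TG water. WT DSS replicate 3 was far below the others, although all 3 WT DSS arrays lay below all 3 WT water arrays. The change in WT was -1.80 ± 0.79 (SE, n = 3 per group, 3.48-fold lower, limma adjusted p = 0.317), and in TG it was -0.08 ± 0.79. Without WT DSS replicate 3 the change in WT was smaller and passed, at -0.55 ± 0.12 (limma adjusted p = 0.0484).

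Hoxa13, known for the hindgut and limb, read -0.35, -0.82 and -2.96 in WT DSS, against -0.11, -0.02 and 0.44 in WT water. In TG DSS it read -0.16, 0.39 and 0.03, against 0.23, 0.49 and 0.02 in TG water. The WT groups were apart and the TG groups overlapped. The change was -1.48 ± 0.54 in WT (SE, n = 3 per group, limma adjusted p = 0.243) and -0.16 ± 0.54 in TG. Without WT DSS replicate 3 the change of Hoxa13 in WT was -0.68 (limma adjusted p = 0.122). Hoxc13, known for hair and nail, read -0.07, -0.32 and -0.02 in WT DSS against 0.19, 0.23 and -0.07 in WT water, and 0.01, 0.01 and 0.17 in TG DSS against -0.17, -0.01 and 0.34 in TG water. Its groups overlapped in both genotypes, with changes of -0.25 ± 0.14 in WT (limma adjusted p = 0.434) and 0.01 ± 0.14 in TG.

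**Figure D2:**
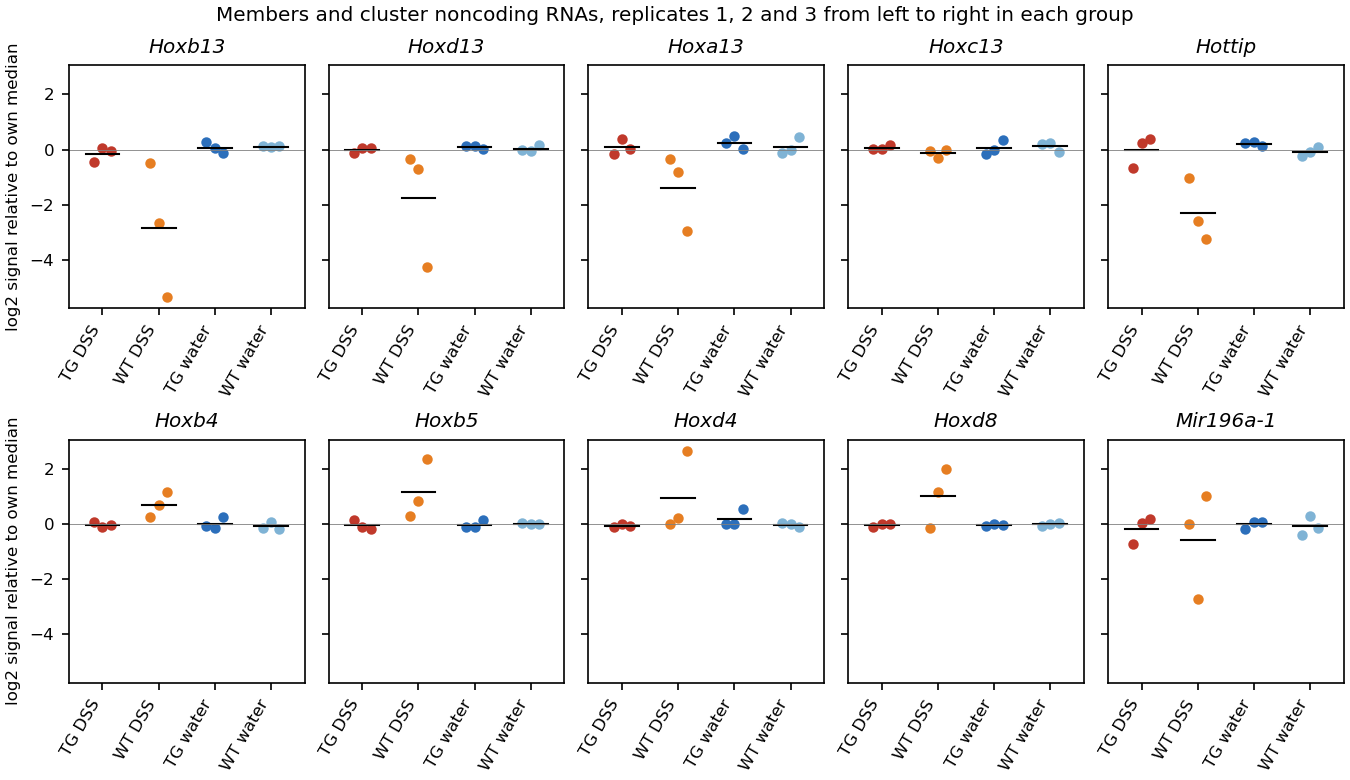
Log2 signal relative to the gene's own median (vertical axis, 1 scale for all panels) of the 4 paralogue group 13 genes, the noncoding RNA Hottip, the genes Hoxb4, Hoxb5, Hoxd4 and Hoxd8, and Mir196a-1. Points are arrays, replicates 1, 2 and 3 from left to right, and bars are group means; for Hoxb13 the WT DSS points run to -5.36 while the TG DSS points lie between -0.45 and 0.06.

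In cluster A, 9 of 10 genes had a DSS change below 0 in WT, with a cluster median of -0.58, and 9 of 10 were below 0 in TG, with a median of -0.21. Of all 19935 genes, 11849 were below 0 in WT and 10726 in TG. Hoxa7, a central gene, read -0.48, -1.0 and -1.26 in WT DSS, against -0.14, -0.02 and 0.13 in WT water. In TG DSS Hoxa7 read -0.33, 0.18 and 0.03, against 0.20, 0.22 and 0.02 in TG water. It had the smallest p of the 37 genes in WT, at -0.91 ± 0.19 (SE, n = 3 per group, limma adjusted p = 0.0809).

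Hoxa3, an anterior gene known for the pharyngeal arches, was low as well. It read -0.40, -0.71 and -0.66 in WT DSS, against -0.05, 0.02 and 0.24 in WT water, and -0.36, 0.13 and -0.02 in TG DSS, against 0.36, 0.17 and 0.12 in TG water. All 3 WT DSS arrays were below WT water, and its change in WT was -0.66 ± 0.14 (SE, n = 3 per group, limma adjusted p = 0.0858). Its change in TG, -0.30 ± 0.14, had the smallest p of the 37 genes there (limma adjusted p = 1). Hoxa9, chosen after its values were seen, read -0.23, -1.37 and -1.88 in WT DSS against -0.19, 0.06 and 0.14 in WT water, and its change was -1.16 ± 0.32 (limma adjusted p = 0.146). Hoxa11 went the other way, at 0.14, 1.29 and 0.13 in WT DSS against -0.15, -0.08 and -0.01 in WT water. All 3 WT DSS arrays were above WT water, and WT DSS replicate 2 stood furthest above. Its change in WT was 0.60 ± 0.26 (limma adjusted p = 0.305).

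In cluster B, 7 of 9 genes had a change above 0 in WT, with a median of 0.47, and 1 of 9 in TG, with a median of -0.10. Of all 19935 genes, 8086 were above 0 in WT and 9209 in TG. Hoxb4, known for blood stem cells and the hindbrain, read 0.26, 0.69 and 1.14 in WT DSS, against -0.14, 0.06 and -0.18 in WT water, and 0.05, -0.10 and -0.05 in TG DSS, against -0.10, -0.17 and 0.24 in TG water. WT DSS was above WT water on every array, and its change was 0.79 ± 0.20 (SE, n = 3 per group, limma adjusted p = 0.118). Hoxb3, known for the hindbrain, read 0.11, 0.67 and 1.39 in WT DSS, against -0.03, 0.04 and -0.02 in WT water, and -0.03, -0.06 and -0.13 in TG DSS, against -0.06, 0.02 and 0.06 in TG water. Its change in WT was 0.73 ± 0.24 (limma adjusted p = 0.207), again with no overlap. Hoxb5, known for the enteric neural crest and gut mesenchyme, read 0.28, 0.84 and 2.37 in WT DSS against 0.02, -0.02 and -0.02 in WT water, a change of 1.17 ± 0.41 (2.25-fold higher, limma adjusted p = 0.223). Hoxb6 and Hoxb9 were high on WT DSS replicate 3, at 1.94 and 1.09, with 0.09 and -0.33 on WT DSS replicate 1, and their changes were 0.71 ± 0.41 and 0.14 ± 0.32.

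In cluster D, the central genes stood above water and the genes from Hoxd10 on below it on WT DSS replicate 3. Hoxd4 read -0.00, 0.21 and 2.66 in WT DSS, against 0.04, 0.00 and -0.12 in WT water, and its change was 0.98 ± 0.55 (SE, n = 3 per group, limma adjusted p = 0.432). Hoxd8, the next measured gene of the cluster, read -0.14, 1.14 and 1.99 in WT DSS, against -0.07, 0.01 and 0.02 in WT water, a change of 1.01 ± 0.39 (limma adjusted p = 0.272). Hoxd9 was flat, and Hoxd10, Hoxd11 and Hoxd12 were below WT water on all 3 WT DSS arrays. Hoxd12, known for the limb, read -0.93, -1.10 and -1.48 in WT DSS against -0.39, 0.20 and 0.25 in WT water, and -0.30, 0.35 and 0.34 in TG DSS against 0.44, 0.44 and -0.20 in TG water. All 3 WT DSS arrays lay below every WT water array, with a change of -1.19 ± 0.26 (limma adjusted p = 0.0844). Spearman's rho between signal and paralogue number over the 9 cluster D genes was -0.733, -0.7 and -0.733 on WT DSS replicates 1, 2 and 3, but the water arrays alone ran between -0.75 and 0.9. The TG DSS arrays ran between -0.167 and 0.75. In the other clusters rho was less even over WT DSS replicates 1, 2 and 3. It was -0.03, -0.212 and -0.515 in cluster A, -0.6, -0.517 and -0.033 in cluster B, and -0.017, -0.717 and -0.217 in cluster C. Over all 37 genes it was -0.405, -0.427 and -0.425 in WT DSS, -0.012 to 0.5 in TG DSS and -0.305 to 0.318 in water. These are descriptions over genes that share arrays and clusters.

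**Figure D3:**
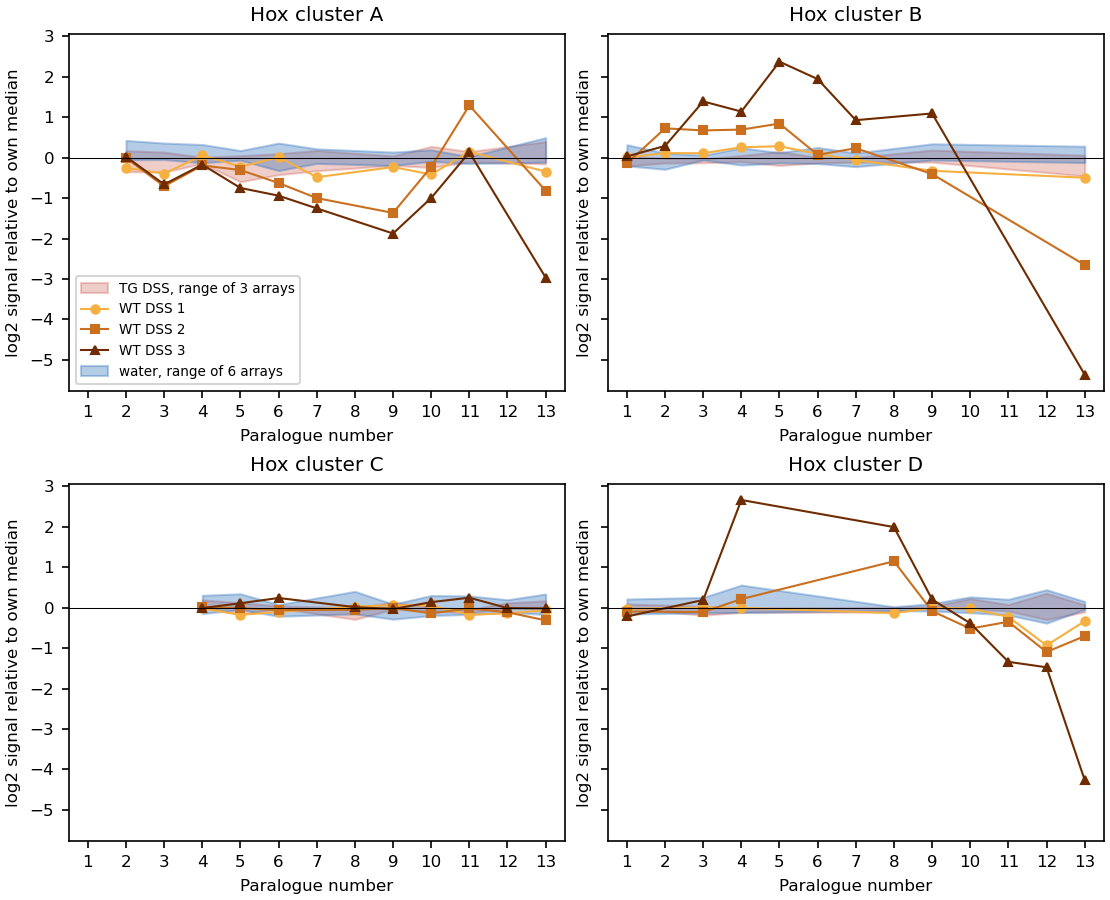
Log2 signal relative to the gene's own median (vertical axis) against paralogue number (horizontal axis) for clusters A to D. Lines are the 3 WT DSS arrays and shaded bands the ranges of the 3 TG DSS and the 6 water arrays; lines and bands join neighbouring measured genes across gaps. In cluster D, WT DSS replicate 3 is at 2.66 for Hoxd4 and at -4.26 for Hoxd13.

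In cluster C no gene stood more than 1 unit from its median on any array. Over its 9 genes the values ran from -0.29 to 0.19 in TG DSS, from -0.32 to 0.24 in WT DSS and from -0.29 to 0.40 in water. Since the values are centred, a flat profile cannot be told apart from a signal near background. By region, the median change in WT was -0.10 for anterior, -0.00 for central and -0.35 for posterior genes, against -0.04 for all genes. In TG it was -0.08, -0.11 and -0.04 in the same order, against -0.01 for all genes.

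For DSS against water in WT, limma called 0 of the 37 genes, against 0.171% of all genes. At an unadjusted p under 0.05, 7 Hox genes were higher, against 5.7% of all genes, and 11 were lower, against 9.55%. Groups did not overlap for 4 higher genes (Hoxa11, Hoxb3, Hoxb4 and Hoxb5, against 5.45% of all genes) and 11 lower genes, namely Hoxa3, Hoxa5, Hoxa7, Hoxa9, Hoxa10, Hoxa13, Hoxb13, Hoxd10, Hoxd11, Hoxd12 and Hoxd13, against 10.7%. Spread within WT DSS was wide: the median SD over the Hox genes was 0.10 in TG DSS, 0.28 in WT DSS, 0.15 in TG water and 0.14 in WT water. Leaving out WT DSS replicate 1 gave 10 genes that passed, against 4.61% of all genes. Hoxb3, Hoxb4, Hoxb5 and Hoxd8 were then higher, and Hoxa3, Hoxa7, Hoxa9, Hoxb13, Hoxd10 and Hoxd12 lower. Hoxb13 then had a change of -4.12 ± 0.60 (limma adjusted p = 0.00609), Hoxa9 of -1.62 ± 0.16 (limma adjusted p = 0.000931) and Hoxd8 of 1.58 ± 0.20 (limma adjusted p = 0.00293), resting on 2 WT DSS arrays. The same omission gave 9 passing genes for TG against WT under DSS, against 5.85% of all genes, and 2, Hoxa9 and Hoxd8, for the interaction described further on, against 1.2%. Without WT DSS replicate 3, 1 gene passed for DSS in WT (Hoxd13), against 2.88% of all genes. With only the WT DSS and WT water arrays fitted, the limma adjusted p was 0.499 for Hoxa7 and 0.454 for Hoxa3. It was 0.429 for Hoxd12 and 0.636 for Hoxb13 in that fit, which has fewer arrays behind its spread. In the fit over all 12 arrays the values were 0.0809, 0.0858, 0.0844 and 0.177, in the same order of genes.

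**Figure D4:**
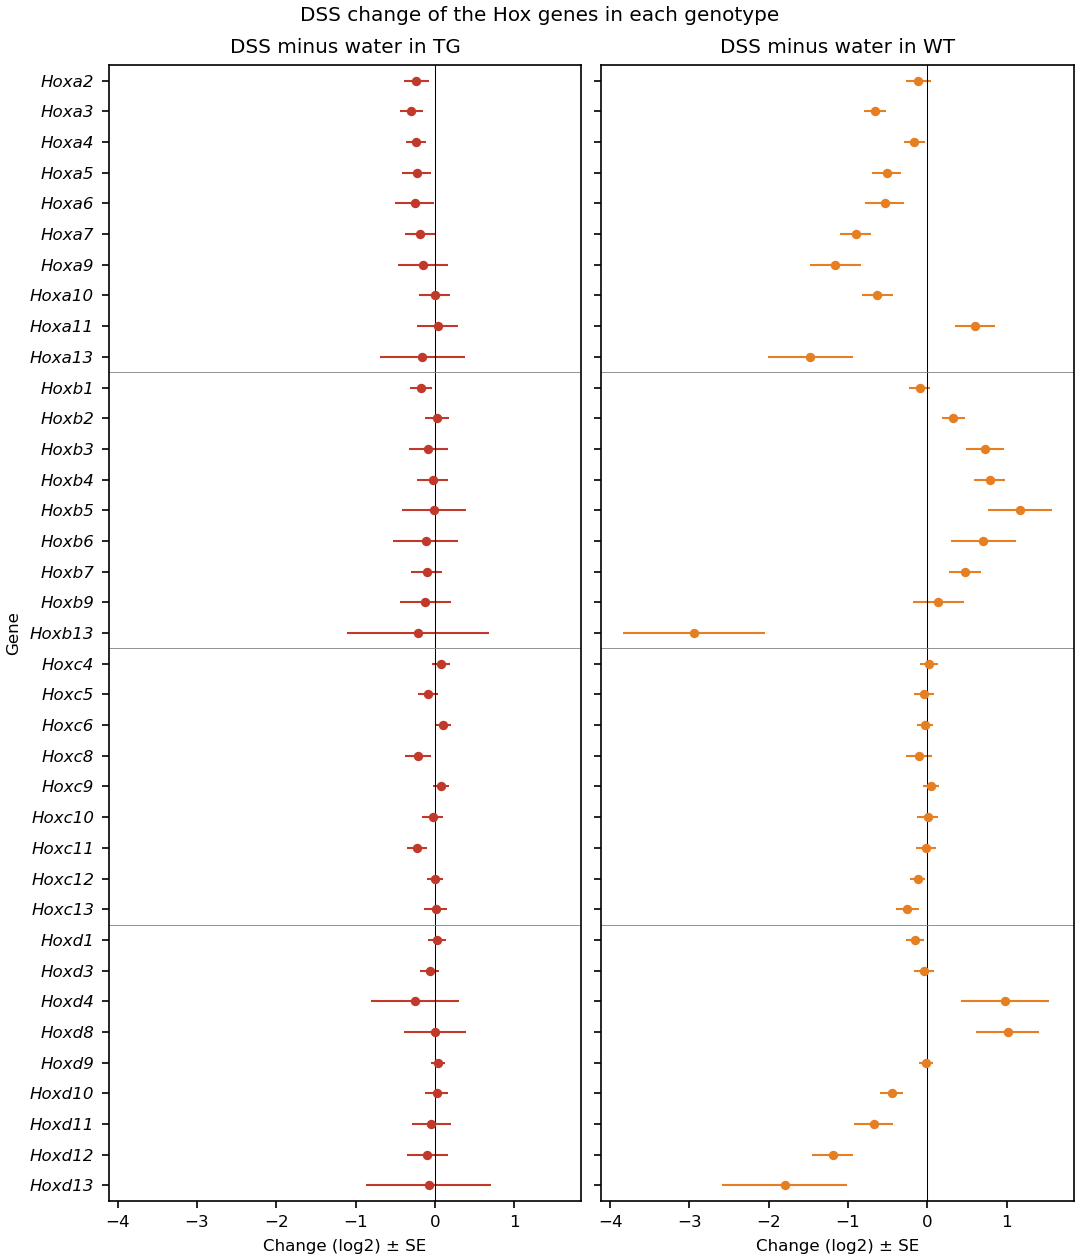
DSS minus water change (log2, horizontal axis) with its SE for each of the 37 Hox genes (rows) in TG mice, left, and in WT mice, right, from the limma fit over 12 arrays. Changes in TG lie between -0.30 and 0.11, and those in WT run from -2.95 for Hoxb13 to 1.17 for Hoxb5.

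In the transgenic mice no Hox gene passed under DSS. All 37 changes lay between -0.30 and 0.11, limma called 0 genes, against 0% of all genes, and at an unadjusted p under 0.05 the counts were 0 higher, against 1.21% of all genes, and 0 lower, against 1.17%. Groups did not overlap for 0 higher genes, against 6.76%, and 3 lower genes (Hoxa4, Hoxa9 and Hoxc11), against 6.64%. Hoxa4 read -0.15, 0.01 and -0.09 in TG DSS against 0.03, 0.13 and 0.32 in TG water, a change of -0.24 ± 0.13. Hoxc11 read -0.04, -0.13 and -0.10 in TG DSS against 0.10, 0.02 and 0.29 in TG water, a change of -0.23 ± 0.13. Hoxa2, known for the second pharyngeal arch, read -0.35, 0.17 and -0.07 in TG DSS against 0.03, 0.42 and 0.00 in TG water, a change of -0.24 ± 0.16. The share of lower genes is near the background.

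TG against WT under DSS uses the same WT DSS arrays, so it is not independent of the DSS comparison in WT. Limma called 0 Hox genes, against 0.0401% of all genes; at an unadjusted p under 0.05, 10 were higher in TG, against 10.3% of all genes, and 5 lower, against 5.63%. Groups did not overlap for 11 higher genes, against 14.1%, and for Hoxb2, Hoxb3, Hoxb4, Hoxb5, Hoxb6 and Hoxd4, which were lower, against 4.9%. Hoxd12 had the smallest p, at 1.30 ± 0.26 (SE, n = 3 per group, limma adjusted p = 0.0984), and Hoxb13 stood at 2.69 ± 0.90 (limma adjusted p = 0.202), or at 1.43 without WT DSS replicate 3 (limma adjusted p = 0.126). With a weight per array Hoxd12 passed, at 1.31 ± 0.26 (limma adjusted p = 0.0415), as did 1.37% of all genes.

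At water, TG and WT did not differ past the threshold. Limma called 0 Hox genes, against 0% of all genes; the unadjusted counts were 0 higher, against 0.176%, and 0 lower, against 0.13%. Groups did not overlap for 0 higher genes, against 1.93%, and 1 lower gene, Hoxc6, against 3.05%. Hoxc6 read -0.21, -0.11 and 0.01 in TG water against 0.04, 0.07 and 0.03 in WT water, a difference of -0.15 ± 0.10. Hoxb2 read -0.03, -0.29 and 0.02 in TG water against -0.06, 0.11 and 0.08 in WT water, and Hoxd9 read -0.09, -0.05 and 0.05 in TG water against 0.10, 0.07 and -0.01 in WT water. Both pairs of groups overlapped. All 37 differences lay between -0.15 and 0.20. With a weight per array 5 Hox genes passed, Hoxa2 and Hoxd12 higher and Hoxc6, Hoxd3 and Hoxd9 lower in TG, against 9.89% of all genes.

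Whether the DSS change differed between the genotypes was tested as an interaction, the change in TG minus that in WT. Limma called 0 Hox genes, against 0% of all genes; at an unadjusted p under 0.05, 5 were above 0, against 4.58% of all genes, and 2 below, against 1.27%. Hoxd12 stood at 1.10 ± 0.36 (SE, limma adjusted p = 0.798), Hoxb4 at -0.81 ± 0.28 (limma adjusted p = 0.801), Hoxa7 at 0.72 ± 0.27 (limma adjusted p = 0.812), Hoxb3 at -0.81 ± 0.34 (limma adjusted p = 0.831) and Hoxb13 at 2.73 ± 1.27 (limma adjusted p = 0.852). Among these, the WT DSS arrays of Hoxd12 were the closest together.

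Cell type markers moved with the WT DSS arrays, and in bulk RNA fewer cells of a type and less RNA per cell cannot be told apart. The median of 11 pan-epithelial markers was -0.08, -2.08 and 0.05 on WT DSS replicates 1, 2 and 3, against -0.21 to 0.03 in TG DSS and -0.07 to 0.11 in water. The median of 9 fibroblast markers was 1.07, 2.26 and -0.34 in WT DSS, against -0.54 to 0.13 in water, and that of 6 neutrophil markers was 2.16, 4.46 and 0.49, against -0.22 to 0.09. On WT DSS replicate 3, where the Hox genes stood furthest from water, the pan-epithelial and fibroblast medians lay within the range of the water arrays. Outside the water range there were the medians of T and NK cell markers, at 1.24 against -0.35 to 0.11 in water, of enteric neuron and glia markers, at 0.32 against -0.18 to 0.20, and of neutrophil markers, given above. Endothelium markers, at -0.36 against -0.30 to 0.36, and B and plasma cell markers, at -1.50 against -1.38 to 0.64, lay below it. TG DSS replicate 1 had medians of 0.84 for fibroblast, 0.96 for neutrophil and 0.98 for macrophage markers, with no Hox gene more than 1 unit from its median. Hoxb13 minus the pan-epithelial median, computed after the data were seen, was -0.41, -0.57 and -5.41 on WT DSS replicates 1, 2 and 3. On WT DSS replicate 2 every Hox gene but Hoxb13 was above 0, from 0.71 for Hoxa9 to 3.37 for Hoxa11. Subtracting a median of -2.08 puts any flat gene above 0 there, so those values are not particular to group 13. On WT DSS replicates 1, 2 and 3 the difference was -0.26, 1.26 and -3.01 for Hoxa13 and -0.25, 1.38 and -4.31 for Hoxd13. For Hoxc13 it was 0.02, 1.76 and -0.07. The part of other cell types in the Hox values was not tested.

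**Figure D5:**
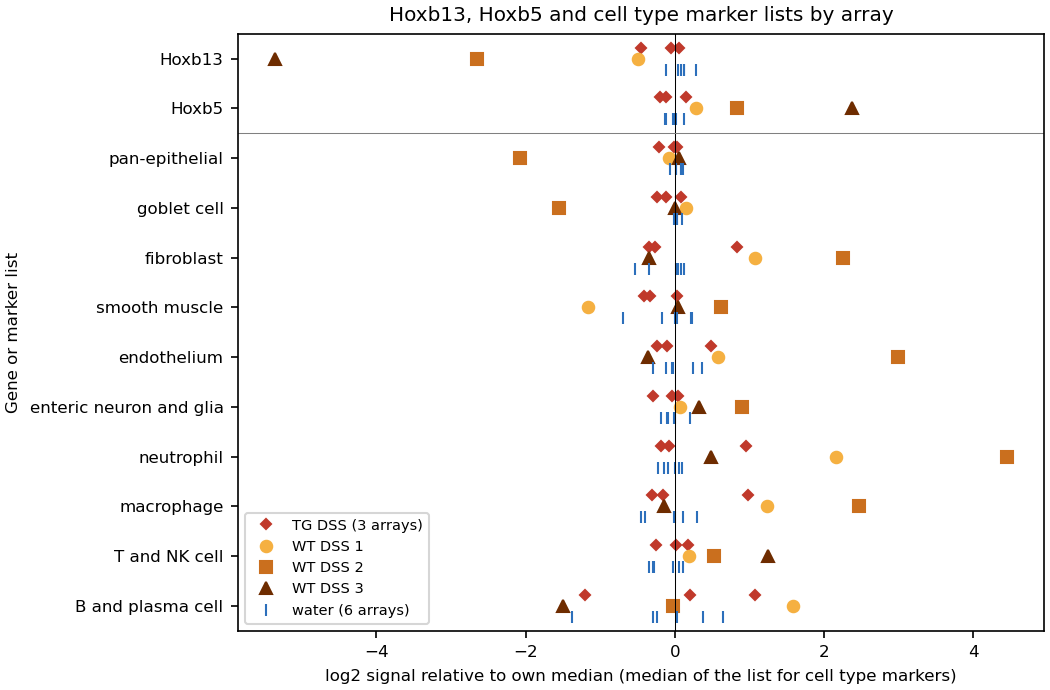
Log2 signal relative to the own median (horizontal axis) of Hoxb13 and Hoxb5 and the median of each cell type marker list (rows), with symbols for the 3 TG DSS arrays, each WT DSS array and the 6 water arrays. On WT DSS replicate 3 Hoxb13 is at -5.36 with the pan-epithelial median at 0.05, and on WT DSS replicate 2 the values are -2.65 and -2.08.

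Other genes of the clusters were read from lists of neighbours, noncoding RNAs and regulators. Of 9 noncoding RNAs, 0 passed in WT, against 0.171% of all genes, and 3 were lower at an unadjusted p under 0.05, against 9.55%. Hottip, a long noncoding RNA beside Hoxa13 known in human cells to keep the posterior HOXA genes active, read -1.03, -2.58 and -3.25 in WT DSS against -0.22, -0.08 and 0.08 in WT water, and -0.65, 0.23 and 0.38 in TG DSS against 0.24, 0.27 and 0.12 in TG water. Hottip was below water on all 3 WT DSS arrays, with a change of -2.21 ± 0.47 (SE, n = 3 per group, limma adjusted p = 0.0809). The probe set of Mir196b, whose product is shown above, read -0.32, -0.81 and -0.79 in WT DSS against 0.12, -0.09 and 0.15 in WT water, with a change of -0.70 ± 0.16 (limma adjusted p = 0.103). Mir196a-1, in cluster B, had no common direction, at -0.02, -2.74 and 1.02 in WT DSS, and Mir196a-2 had a change of -0.25 ± 0.11 (limma adjusted p = 0.304). Mir10b, beside Hoxd4, had a change of 0.11 ± 0.11 (limma adjusted p = 0.69). Array probe sets of microRNA genes need not measure the mature product.

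Of 12 protein-coding neighbours, 0 passed and 2 were lower at an unadjusted p under 0.05, against 9.55% of all genes. Ttll6, a tubulin-modifying enzyme gene beyond the Hoxb13 end of cluster B, had a change of -1.56 ± 0.49 (limma adjusted p = 0.187), and Skap2, beyond the anterior end of cluster A, of -0.53 ± 0.21 (limma adjusted p = 0.28). Of 8 Hox cofactors of the Pbx, Meis and Pknox families, which bind DNA with Hox proteins, 0 passed, and 1, Meis3, was higher at an unadjusted p under 0.05, against 5.7% of all genes. Its change was 0.53 ± 0.21 (limma adjusted p = 0.278). Meis2 read 0.15, 2.42 and 0.76 in WT DSS against 0.25, -0.24 and 0.50 in WT water. It was highest on WT DSS replicate 2. The medians of fibroblast, smooth muscle, endothelium, enteric neuron and glia, neutrophil and macrophage markers were highest there as well. The cell source was not tested.

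Of 12 regulators of gut region, 0 passed. Isx, a homeobox gene known for the small intestine, read 2.11, 0.54 and 4.74 in WT DSS against -0.09, -0.22 and -0.10 in WT water, and 1.75, -0.07 and 1.27 in TG DSS against -0.08, 0.07 and -0.12 in TG water. Its change was 2.60 ± 0.85 in WT (SE, n = 3 per group, limma adjusted p = 0.201) and 1.03 ± 0.85 in TG. Cdx2, the caudal factor that activates posterior Hox genes in the embryo, read -0.52, -1.92 and 1.74 in WT DSS, chosen after its values were seen, and had a change of -0.06 ± 0.72. Of 17 Polycomb and Trithorax genes, which keep Hox genes silent or active, 0 passed, and the smallest p belonged to Kmt2a, at 0.38 ± 0.10 (limma adjusted p = 0.135). Both measured genes of the distal colon list, subunits of the epithelial sodium channel, had changes below 0: Scnn1g had a change of -1.64 ± 0.44 in WT (limma adjusted p = 0.14) and of -1.30 ± 0.44 in TG, and Scnn1b of -1.22 ± 0.41 in WT (limma adjusted p = 0.213).

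The genes whose pattern over the 12 arrays was most like that of Hoxb13 are given as a description with no p. Hox genes and predicted or non-descriptive symbols (Gm with a number, Rik, LOC, Olfr and Vmn) were left out of this ranking. The highest Pearson correlations were those of Tgm3, a transglutaminase, at 0.994, Reg4, a secreted lectin of gut secretory cells, at 0.9891, Insl5, a hormone of colonic enteroendocrine cells, at 0.9869, Sval1 at 0.9864, Vsig1 at 0.9857 and Slc37a2 at 0.9789. Tgm3 read -0.38, -2.50 and -6.12 in WT DSS, against 0.07, 0.10 and 0.13 in WT water. The lowest were those of Arhgap20 at -0.987, Pcsk5, a proprotein convertase, at -0.9867, Rassf4 at -0.9805, Gzmb, a protease of cytotoxic lymphocytes, at -0.9731, Flrt3 at -0.9709 and Osr2 at -0.9698. Without WT DSS replicates 2 and 3, over 10 arrays, the correlation was 0.86 for Tgm3, 0.646 for Reg4, 0.477 for Insl5, 0.806 for Sval1, 0.159 for Vsig1 and 0.766 for Slc37a2. On the other side it was -0.307 for Arhgap20, -0.478 for Pcsk5, -0.621 for Rassf4, -0.927 for Gzmb, 0.049 for Flrt3 and -0.445 for Osr2.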

How the data were processed

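Per the submitters' processing notes, the authors summarised the arrays with RMA in Affymetrix Expression Console; the sources used here do not give their versions. The deposited values are treated as log2, the scale of RMA. Every probe set had a median of 0 over the arrays (tolerance 5e-07), so the values are centred and no filter on dim probe sets was possible. Probe sets with 1 gene symbol (21780 of 28815; 1605 had several, 5430 none) were averaged per gene, giving 19935 genes. Names and promoters came from RefSeq GRCm38.p6. A further member of the family is not reported here.

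The 12 arrays entered 1 group-means model (limma 3.58.1, R 4.3.3, eBayes, two-sided, Benjamini-Hochberg over all genes). The model was also run on simulated data with the same spread in all 4 groups. That run cannot show how the model behaves with the wider spread of the WT DSS arrays. Tables and figures used Python 3.11.15, pandas 2.3.3, numpy 2.4.6 and matplotlib 3.10.9. The number of arrays limits the precision.

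The Hox genes, gene lists and tests were chosen with earlier results of these data known. Genes named were the Hox genes, with array values for group 13 and for the 4 with the smallest p per comparison (in the groups compared); of each supporting list up to 4 genes with the smallest p; and the 6 genes with the highest and the 6 with the lowest correlation with Hoxb13. The correlation ranking left out Hox genes and predicted or non-descriptive symbols. Hoxa9, Hoxa11, Hoxb5, Hoxb6, Hoxb9, Hoxd4, Hoxd8, Cdx2 and Mir196a-1, and the choice of list and correlated genes shown by array, stand outside that rule and were made after the values were seen. Alternatives were fits on the groups compared alone, a replicate block, probe sets taken singly, centred arrays, eBayes with trend and robust, array and group weights, stricter thresholds, other region borders and the omission of each array. WT DSS replicates 2 and 3 were left out together as an alternative added after the data were seen.

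Marker and regulator lists gave 0 passing genes for DSS in either genotype. Median changes in WT were -0.76 for pan-epithelial, -0.45 for goblet cell, 0.88 for fibroblast, -0.31 for smooth muscle, 1.14 for endothelium, 0.32 for enteric neuron and glia, 2.53 for neutrophil, 1.12 for macrophage, 0.72 for T and NK cell, -0.17 for B and plasma cell and -0.26 for adipocyte markers.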

Additional observations from a re-analysis of the deposited data

Results flagged for a closer look

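For 4 Hox genes every WT DSS array lay on one side of the WT water mean and every TG DSS array on the opposite side of the TG water mean. The interaction, TG change minus WT change, was -0.81 for Hoxb3, -0.83 for Hoxb6, -0.58 for Hoxb7 and -1.23 for Hoxd4. None passed the interaction in the limma fit (0 of 37 Hox genes), and the opposite sides by themselves were not tested. Groups of 3 arrays are too small to test for an outlying array.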

How the results depend on the processing

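The number of Hox genes that passed depended on the WT DSS arrays. Leaving out each array in turn gave 0 to 10 passing genes for DSS in WT, 0 to 9 for TG against WT under DSS, 0 to 2 for the interaction and 0 in each fit for DSS in TG and for TG against WT at water. The highest counts, 10, 9 and 2, came without WT DSS replicate 1, and 1 gene, Hoxd13, passed for DSS in WT without WT DSS replicate 3. Array weights gave 1 gene for TG against WT under DSS (Hoxd12, 1.37% of all genes passing) and 5 for TG against WT at water (9.89% of all genes). Every other setting gave 0 in each comparison it was fitted for. The cause was not tested. The replicate numbers do not mark shared animals in the labels, and same-numbered arrays deviated with correlations from -0.484 to 0.377 over 18 pairs; the fit with the replicate block passed 0 Hox genes in each comparison. Each named change was counted once per alternative fit. On that count 734 entries kept direction and side of the threshold, 13 newly passed and 5 changed sign. Some settings, such as leaving out an array outside the groups compared, keep the group means, so the direction could not change there. The sign changes came from leaving out an array: Hoxc13 ran from -0.1004 to 0.1535 for DSS in TG and from -0.2072 to 0.0467 for TG against WT at water, and Hoxb13 from -0.148 to 0.0535 for TG against WT at water, none of them passing. Region medians moved by more than the spread between arrays 34 times and stayed within it 191 times. Omitting an array outside the groups compared could not move a median, and such fits are among the 191. The centred values limit what signal near background can be recognised.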

Other observations

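The probe set shared by Hoxb8 and Hoxb7 read 0.01, 0.03 and 1.30 in WT DSS against 0.04, -0.05 and -0.14 in WT water, and 0.05, -0.20 and -0.01 in TG DSS against -0.03, -0.25 and 0.09 in TG water. The 2 genes cannot be told apart there.

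Mir196a-1, at -2.74 on WT DSS replicate 2 and 1.02 on WT DSS replicate 3, took opposite signs on those arrays, and so did Cdx2, at -1.92 and 1.74. Hoxb13 was below its median on both, at -2.65 and -5.36.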
